A study of Homo sapiens with 12 samples.

Results

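The transcripts described here encode regulators of apoptosis: relatives of BCL2, caspases, inhibitors of caspases, death receptors with their ligand and adaptors, and the factors released from mitochondria or acting on DNA. They were taken from a list of 35 genes by one criterion, that a probe set of the array names the gene and no other. This held for 30 of the 35 genes, which had 68 of the 22277 probe sets, and 28 of the 30 were bright enough to be tested. BBC3, BMF, BIRC3, RIPK1 and TNFRSF10A had no probe set of their own and were not analysed here.

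The study measured eIF4E-bound RNA in MDA-MB-231, an established line of human triple-negative breast cancer with mutant p53, grown in DMEM with serum. The 4 groups were eIF4E precipitates of irradiated cells (2 Gy of X-rays, collected at 6 h), eIF4E precipitates of untreated cells, IgG precipitates of irradiated cells and IgG precipitates of untreated cells, with 3 arrays each and replicates that the design text calls biological. IgG gives the background of RNA that sticks to an antibody or to the beads. Every group came from this 1 line and total lysate RNA was not analysed here, so a difference between precipitates stands for recovery relative to other transcripts of the same array.

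As background, eIF4E holds the cap at the start of a messenger RNA and brings it to the ribosome. Apoptosis can start inside the cell, where BH3-only proteins release BAX and BAK1 to open the outer mitochondrial membrane, or outside it, where a ligand gathers death receptors and adaptors that activate caspase-8. Cytochrome c that leaves the mitochondria joins APAF1 and caspase-9 in the apoptosome, and executioner caspases then cut the proteins of the cell. Survival proteins of the BCL2 family block the opening of the membrane, and inhibitor of apoptosis proteins block caspases further down. CFLAR blocks caspase-8 at the receptor.

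Technical measures differed between the antibodies on every array. The Alu repeat probe set read 13482 to 18476 on the 6 eIF4E arrays and 36876 to 53246 on the 6 IgG arrays. The actin 3' probe set over its 5' partner gave a ratio of 1.33 to 1.53 with eIF4E and 2.96 to 5.38 with IgG. These measures move with every difference between antibodies given below, and their part in it was not tested. Replicate 1 of every group stood apart from replicates 2 and 3 in a ratio of hybridization controls, bioB to bioC, at 0.369 to 0.460 against 0.0351 to 0.0899. Of the 8 markers listed for this line, VIM (lowest at 9157) and AXL (4413) were bright on all arrays. MET (lowest at 896) and ZEB1 (387) were less bright, and ZEB1 fell under the range of EPCAM and GATA3 given next. CDH1, PGR, ESR1 and FOXA1, which mark luminal cells, stayed at or under 60.9. EPCAM (533 to 1542) and GATA3 (603 to 1466), also listed as luminal markers, were not absent. Per array, the median of genes typical of leukocytes, liver, neurons or muscle was 13.3 to 29.9 with eIF4E and 7.93 to 35.2 with IgG. This gives a typical level of genes that the line is taken not to express. Single genes of these lists reached more, CD3D 108.8 and SNAP25 103.9. The lowest eIF4E signals of APAF1 (98.4) and CASP2 (64.2) lay under these values.

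Averaged over irradiated and untreated cells, 13 of the 28 tested regulators were higher with eIF4E than with IgG and 7 were lower (limma, adjusted p under 0.05 over 7178 genes). The other 8 did not pass. Of all genes tested, 70.7% were called, 32.5% as higher and 38.2% as lower. Signals are the deposited MAS5 intensities, and differences are eIF4E minus IgG on the log2(signal + 16) scale, given with their SE. The median difference of the 28 was 0.37, beside -0.07 over all genes. The 5 largest increases were those of BAD, BAX, BAK1, BID and DIABLO, and the lowest values were those of APAF1 and CASP2. All of these genes promote death, as do 21 of the 28 tested.

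By role, eIF4E gave higher values for 12 of the 21 tested pro-death genes and lower values for 4, and the median difference was 0.55. Of the 4 tested pro-survival genes none was higher and 2 were lower, with a median of -0.37, and 4 genes are too few for a statement on the class. Of the 3 genes with roles on both sides, TRADD was higher, DFFA lower and TNFRSF1A not past the threshold. The difference between the classes was not tested, and the count for pro-survival genes depended on which CFLAR probe set was used. With every array centred on its median, 14 regulators were higher and 4 lower, and the median of all genes moved to 0.06. Of all 7178 genes, 2704 were then higher and 2332 lower, beside 2334 and 2744 without centring. No called gene changed sign with centring or with quantile normalization.

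**Figure D1:**
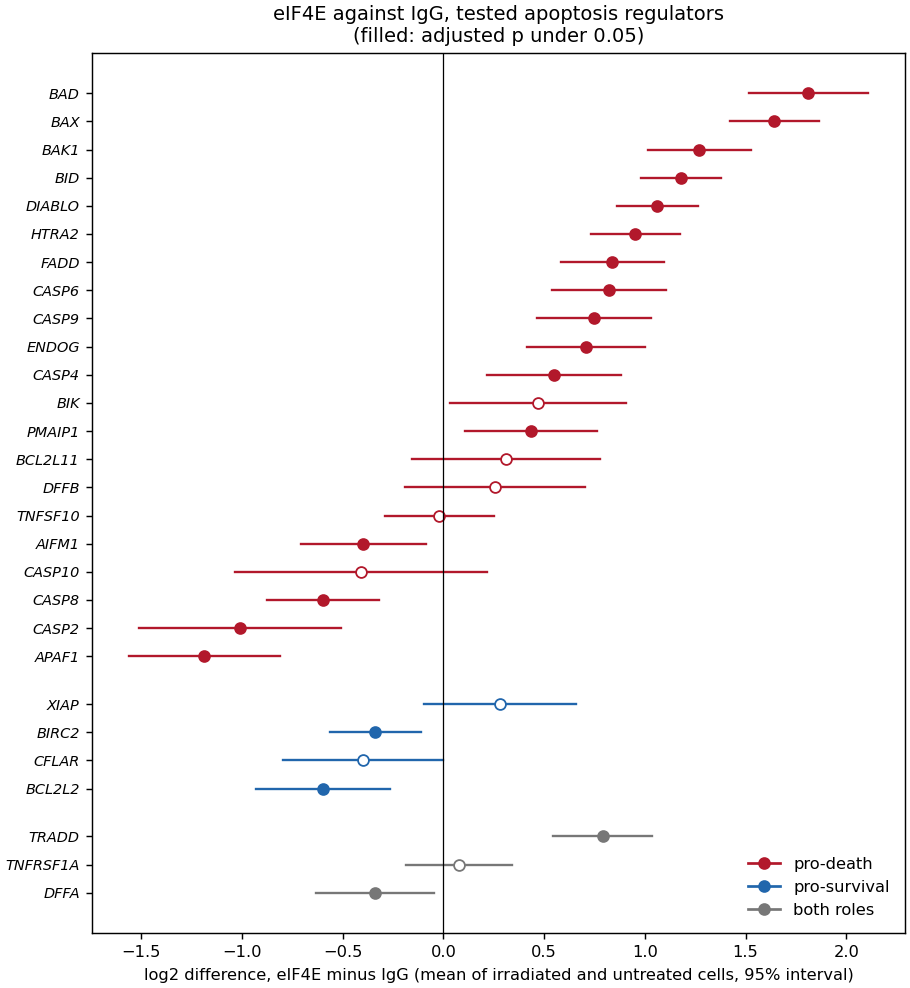
Differences of eIF4E minus IgG on the log2(signal + 16) scale (x axis) for the 28 tested regulators, with 95% intervals of the limma fit, 6 arrays a side. Filled points passed an adjusted p of 0.05. Pro-death genes run from BAD at 1.81 to APAF1 at -1.19, and the 4 pro-survival genes from XIAP at 0.28 to BCL2L2 at -0.60.

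The effectors BAX and BAK1 form the pores of the outer mitochondrial membrane, and both were higher with eIF4E. BAX gave signals of 2468, 2212 and 2333 with eIF4E in irradiated cells and 2646, 2231 and 2377 with eIF4E in untreated cells. It gave 674, 778 and 826 with IgG in irradiated cells and 903, 693 and 653 with IgG in untreated cells. The 6 eIF4E arrays all lay above the 6 IgG arrays. The log2 difference was 1.64 ± 0.10 (SE, adjusted p = 1.53e-09 by limma), a 3.12-fold higher value. A second BAX probe set differed by 1.57 ± 0.12.

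BAK1 gave 502, 603 and 570 with eIF4E in irradiated cells and 537, 676 and 680 with eIF4E in untreated cells. It gave 222, 253 and 225 with IgG in irradiated cells and 246, 195 and 281 with IgG in untreated cells. The lowest eIF4E array was thus well above the highest IgG array. The difference was 1.27 ± 0.12 (SE, adjusted p = 8.99e-08 by limma).

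BH3-only proteins sense damage or lost growth signals and act on the other BCL2 relatives, and 3 of the 5 that were tested were higher with eIF4E. BAD, which growth factor signalling keeps inactive by phosphorylation, gave 2096, 1612 and 1686 with eIF4E in irradiated cells and 1938, 1849 and 1713 with eIF4E in untreated cells. Its IgG signals were 519, 555 and 547 in irradiated cells and 700, 350 and 423 in untreated cells. The antibodies did not overlap, and the difference of 1.81 ± 0.14 was the largest of the 28 genes (SE, adjusted p = 9.70e-09 by limma, 3.51-fold). Its second probe set agreed in direction at 1.86 ± 0.14.

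BID carries the signal of caspase-8 to the mitochondria once it has been cleaved. Its eIF4E signals were 1365, 1258 and 1409 in irradiated cells and 1469, 1370 and 1405 in untreated cells. With IgG they were 588, 585 and 530.5 in irradiated cells and 718, 587 and 603 in untreated cells. These arrays did not overlap either, and the difference was 1.18 ± 0.09 (SE, adjusted p = 1.43e-08 by limma), with a second probe set at 0.95 ± 0.15.

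PMAIP1, also called NOXA, neutralises MCL1. Its 6 eIF4E arrays had a lowest, median and highest signal of 3562, 4109 and 4779, and its IgG arrays had 1800, 3375 and 3966, so the antibodies overlapped. It was higher by 0.43 ± 0.16 (SE, adjusted p = 0.0197 by limma). Quantile normalization ended that call (0.34, adjusted p = 0.0619), as did leaving out replicate 2 of the irradiated eIF4E arrays (adjusted p = 0.0521) or replicate 1 of the untreated IgG arrays (adjusted p = 0.0588). Its other probe set did not overlap between antibodies and was at 0.73 ± 0.15. BIK (72.6 to 176 with eIF4E and 60.6 to 100.4 with IgG, 0.47 ± 0.21, adjusted p = 0.0513) and BCL2L11, also called BIM (79.8 to 129.7 with eIF4E and 41.0 to 117 with IgG, 0.31 ± 0.22, adjusted p = 0.215), did not pass. BIK passed under 5 other settings and in 4 of the 12 omissions of an array, with adjusted p between 0.0183 and 0.0461, and BCL2L11 passed as the mean of its probe sets (0.51, adjusted p = 0.0289). The other BCL2L11 probe set in that mean lay under the signal filter, at 30.6 to 49.6 with eIF4E and 3.24 to 48.3 with IgG.

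**Figure D2:**
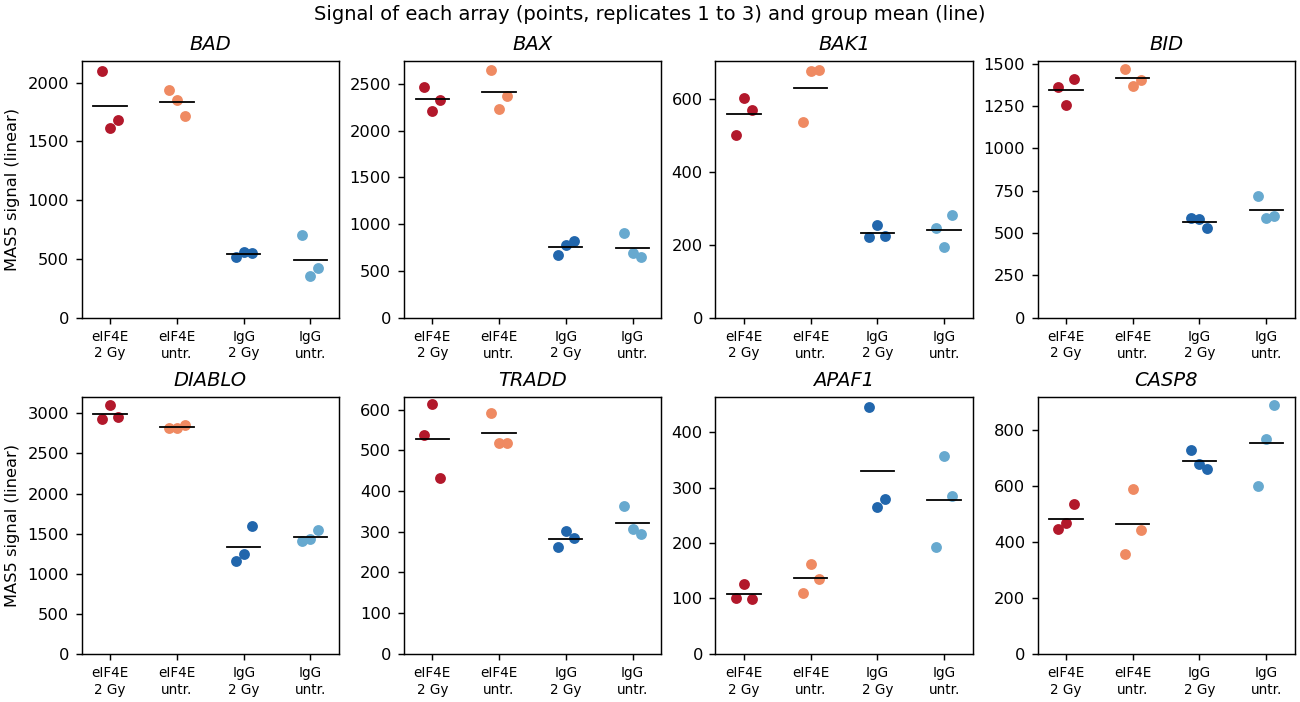
Deposited MAS5 signal on a linear axis from 0 for 8 regulators, with a point for each array and a line for the mean of the 3 arrays of a group. In BAD, BAX, BAK1, BID, DIABLO and TRADD every eIF4E array lies above every IgG array, and in APAF1 and CASP8 every eIF4E array lies below.

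The factors released by mitochondria and the scaffold that answers to them did not move as one. DIABLO, also called SMAC, frees caspases from their inhibitors. It gave 2931, 3105 and 2953 with eIF4E in irradiated cells and 2821, 2820 and 2850 with eIF4E in untreated cells. With IgG it gave 1156, 1250 and 1597 in irradiated cells and 1402, 1426 and 1545 in untreated cells. It was higher by 1.06 ± 0.10 without overlap (SE, adjusted p = 4.92e-08 by limma). HTRA2, a serine protease that also binds those inhibitors, was higher by 0.95 ± 0.10 (adjusted p = 4.67e-07), with 1096 to 1372 over the 6 eIF4E arrays and 527 to 725 over the 6 IgG arrays. ENDOG, a mitochondrial nuclease, was higher by 0.71 ± 0.14 (adjusted p = 0.000226), with eIF4E arrays at 437 to 533 and IgG arrays at 246 to 441, which just overlapped.

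APAF1, the scaffold of the apoptosome, went the other way. Its eIF4E signals were 100.2, 125.5 and 98.4 in irradiated cells and 110.3, 163 and 136 in untreated cells. With IgG they were 446, 265 and 279 in irradiated cells and 193, 358 and 284 in untreated cells. No eIF4E array reached the IgG range, and the difference was -1.19 ± 0.18 (SE, adjusted p = 1.44e-05 by limma). A second APAF1 probe set above the signal filter gave 0.30 ± 0.21 (adjusted p = 0.202), so the value rests on 1 probe set. AIFM1, a flavoprotein of the mitochondrial intermembrane space, was at -0.40 ± 0.15 (adjusted p = 0.0235). It lost the call with centring (-0.27, adjusted p = 0.131), with quantile normalization (-0.29, adjusted p = 0.114) and when every replicate 1 was left out (-0.26, adjusted p = 0.112). Leaving out single arrays ended it 5 times of 12, with adjusted p between 0.0511 and 0.0616, for replicate 2 of irradiated eIF4E, replicate 1 of untreated eIF4E, replicates 1 and 3 of irradiated IgG and replicate 1 of untreated IgG.

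Among initiator caspases, 1 was higher and 2 were lower. CASP9, which the apoptosome activates, had eIF4E signals with a lowest, median and highest of 289.9, 324 and 448, and IgG signals of 157, 205 and 221. Its arrays did not overlap, and it was higher by 0.75 ± 0.13 (SE, adjusted p = 9.53e-05 by limma). CASP8, which death receptors activate, gave 444, 469 and 536 with eIF4E in irradiated cells and 357, 588 and 443 with eIF4E in untreated cells. It gave 727, 678 and 662 with IgG in irradiated cells and 600.1, 768 and 891 with IgG in untreated cells. All its eIF4E arrays lay below all its IgG arrays, by a narrow gap in untreated cells. The difference was -0.60 ± 0.13 (SE, adjusted p = 6.59e-04 by limma). Its other probe set, under the signal filter, read 43.9 to 88.6 with eIF4E and 5.19 to 85.2 with IgG, and the mean of both probe sets was 0.20 (adjusted p = 0.350).

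CASP2, a caspase linked to DNA damage, was at -1.01 ± 0.24 (adjusted p = 0.00118). Its eIF4E arrays read 64.2, 138 and 151 (lowest, median, highest) and its IgG arrays 146, 270 and 401, with some overlap. Of its 5 probe sets 3 lay above the signal filter, and 2 of these did not pass, the highest at 0.18, so the call rests on 1 probe set. The mean of all 5, which includes those under the filter, was -0.21 and did not pass (adjusted p = 0.373). CASP10, a relative of caspase-8, was dim (14.0 to 125 with eIF4E and 64.5 to 109 with IgG) and was at -0.41 ± 0.30 (adjusted p = 0.228). Without replicate 3 of irradiated eIF4E it passed at -0.67 (adjusted p = 0.0353).

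CASP6, an executioner caspase that cleaves lamins, was higher by 0.82 ± 0.13 (adjusted p = 3.64e-05), with 818 to 1351 on eIF4E arrays and 546 to 880 on IgG arrays. CASP4, an inflammatory caspase that senses bacterial lipopolysaccharide inside the cell, was higher by 0.55 ± 0.16 (adjusted p = 0.00509), with 174 to 263 on eIF4E arrays and 122 to 207 on IgG arrays. It lost the call when every replicate 1 was left out (0.36, adjusted p = 0.0929) and as the mean of its probe sets (0.39, adjusted p = 0.124). The other CASP4 probe set in that mean lay under the signal filter, at 2.66 to 46.45 with eIF4E and 2.42 to 48.35 with IgG. CASP1, the inflammatory caspase that matures interleukin-1, lay under the signal filter, and its 5 probe sets stayed at or under 106.9 on all arrays.

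In the death receptor pathway, the adaptors were higher and the ligand and receptor did not pass. FADD, which links receptors to caspase-8, had eIF4E signals of 2384 to 3019 and IgG signals of 1190 to 1804. It was higher by 0.84 ± 0.12 without overlap (SE, adjusted p = 1.04e-05 by limma). TRADD, the adaptor of TNF receptor 1, which can lead to survival or death, gave 537, 614 and 432 with eIF4E in irradiated cells and 593, 519 and 518 with eIF4E in untreated cells. It gave 262, 301 and 286 with IgG in irradiated cells and 363, 306 and 295 with IgG in untreated cells. The antibodies did not overlap, and the difference was 0.79 ± 0.12 (SE, adjusted p = 1.24e-05 by limma). A second TRADD probe set gave 0.97 ± 0.12.

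TNFRSF1A, that receptor, was at 0.08 with a 95% interval of -0.18 to 0.34 (limma, adjusted p = 0.581). TNFSF10, the ligand TRAIL, was at -0.02 with an interval of -0.29 to 0.25 (limma, adjusted p = 0.896), though 1 of its 3 probe sets was called higher at 0.46 ± 0.16. The intervals hold for the 1 probe set that stood for each gene, and the TNFSF10 probe set at 0.46 lay outside the interval given.

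Of the survival genes listed, 4 were tested. BCL2L2, also called BCL-w, was at -0.60 ± 0.16 (adjusted p = 0.00266), with eIF4E signals of 316, 355 and 439 (lowest, median, highest) and IgG signals of 355, 534 and 785. The antibodies overlapped at 1 irradiated IgG array, replicate 1. BIRC2, a ubiquitin ligase that restrains RIPK1 signalling, was at -0.34 ± 0.11 (adjusted p = 0.00992), with 3424 to 4845 on eIF4E arrays and 4235 to 6341 on IgG arrays. Centring ended that call (-0.20, adjusted p = 0.135). XIAP, a direct inhibitor of caspases, was at 0.28 ± 0.18 (adjusted p = 0.172). It was at -0.01 in irradiated cells and at 0.57 in untreated cells, without overlap in the latter (limma, adjusted p = 0.0613). In untreated cells it passed as higher with quantile normalization (limma, adjusted p = 0.0240) and with centring (limma, adjusted p = 0.02805). It also passed there without replicate 1 of untreated IgG (limma, adjusted p = 0.0414). BCL2A1 lay under the signal filter, at 0.990 to 22.5 over all arrays.

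CFLAR, the inactive relative of caspase-8 that blocks it at the receptor, was the member with probe sets called in opposite directions. Of its 11 probe sets, 9 lay above the filter, 2 were called higher, 3 lower and 4 did not pass. The probe set 211317_s_at stood for the gene because the others above the filter end in _x_at, a mark of probes that may also bind related sequences. It read 72.0, 57.6 and 62.4 with eIF4E in irradiated cells and 52.2, 77.7 and 72.3 with eIF4E in untreated cells. With IgG it read 97.3, 94.1 and 89.1 in irradiated cells and 119, 63.9 and 89.7 in untreated cells. The arrays overlapped, and the gene was at -0.40 ± 0.19 (adjusted p = 0.0687). Without replicate 2 of untreated IgG it passed at -0.50 (adjusted p = 0.0249).

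The CFLAR probe set 209939_x_at read 1852, 1820 and 1841 with eIF4E in irradiated cells and 1798, 2014 and 1889 with eIF4E in untreated cells. It read 852, 1101 and 1542 with IgG in irradiated cells and 1366, 1267 and 1394 with IgG in untreated cells. It was higher by 0.59 ± 0.12 without overlap (SE, adjusted p = 3.48e-04 by limma over 10566 probe sets). The CFLAR probe set 210563_x_at, the next brightest, read 1003, 1146 and 1012 with eIF4E in irradiated cells and 1119, 1185 and 1184 with eIF4E in untreated cells. It read 385, 617 and 738 with IgG in irradiated cells and 687, 664 and 817 with IgG in untreated cells. This probe set too was higher without overlap, by 0.78 ± 0.14 (SE, adjusted p = 6.94e-05 by limma).

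The CFLAR probe set 211316_x_at went the other way. It read 162, 140 and 151 with eIF4E in irradiated cells and 132, 106 and 109.8 with eIF4E in untreated cells. With IgG it read 360, 263 and 173 in irradiated cells and 288, 343 and 282 in untreated cells, again without overlap, and the difference was -0.99 ± 0.16 (SE, adjusted p = 3.63e-05 by limma). Another pair of CFLAR probe sets was called lower with overlapping arrays, 210564_x_at at -0.71 ± 0.22 and 209508_x_at at -0.68 ± 0.18. Which CFLAR transcripts these probe sets detect was not analysed here.

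**Figure D3:**
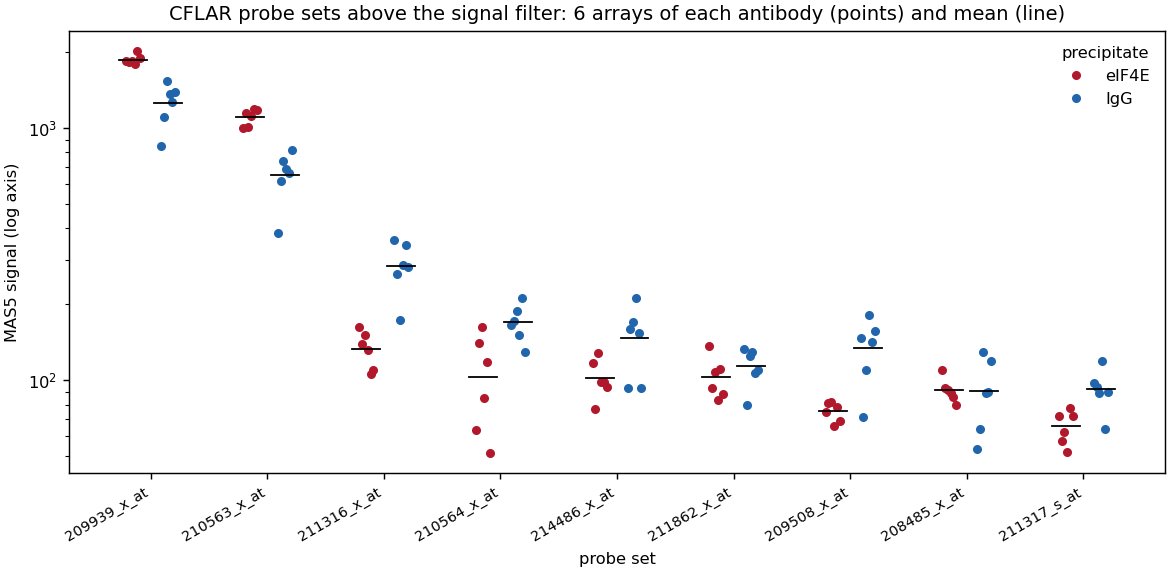
Signal (log axis) of the 9 CFLAR probe sets above the signal filter, ordered by mean signal, with the 6 eIF4E arrays left of the 6 IgG arrays and a line for each mean. In 209939_x_at and 210563_x_at the eIF4E arrays lie above the IgG arrays, and in 211316_x_at they lie below. Levels are to be compared within a probe set.

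CFLAR aside, no regulator had probe sets called in opposite directions. Of 14 regulators with several probe sets above the filter, 8 had all of them called the same way, 3 had some called and none opposite, and 2 had none called. Over all 51 probe sets of the regulators above the filter, 24 were called higher and 10 lower, where 31.5% and 38.3% of all probe sets were. Of all 2317 genes with several probe sets above the filter, 234 had opposite calls.

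DNA fragmentation completes the programme. DFFB, the nuclease also called CAD, read 71.5 to 158 with eIF4E and 70.4 to 117 with IgG and was at 0.26 ± 0.21 (adjusted p = 0.290). DFFA, its chaperone and inhibitor, was at -0.34 ± 0.14 (adjusted p = 0.0381). It lost that call with quantile normalization (-0.18, adjusted p = 0.247), centring (-0.21, adjusted p = 0.189), no signal filter (adjusted p = 0.0636) and all replicates 1 left out (-0.22, adjusted p = 0.137). Leaving out single arrays ended it 7 times of 12, with adjusted p between 0.0504 and 0.110, for replicate 1 of irradiated eIF4E, replicates 1 and 2 of untreated eIF4E, replicates 2 and 3 of irradiated IgG and replicates 1 and 2 of untreated IgG. The eIF4E arrays read 282, 334 and 346 (lowest, median, highest) and the IgG arrays 323, 406 and 594.

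The promoter is shown for the 7 pro-death genes whose antibodies did not overlap and that had the largest differences in each direction, as a view of the genes themselves, since nothing was measured there. Each line gives the 100 bases before the annotated gene start in RefSeq (GRCh38.p14), 5' to 3' on the strand of the gene, with the GC box GGGCGG or its reverse complement CCGCCC in capitals. The first 5 lines are genes higher with eIF4E and the last are genes lower with eIF4E. The windows are chr11:64284705-64284804 (minus strand) for BAD, chr19:48954775-48954874 (plus strand) for BAX, chr6:33580277-33580376 (minus strand) for BAK1, chr22:17774470-17774569 (minus strand) for BID, chr12:122226569-122226668 (minus strand) for DIABLO, chr12:98645190-98645289 (plus strand) for APAF1 and chr2:201233363-201233462 (plus strand) for CASP8.
BAD: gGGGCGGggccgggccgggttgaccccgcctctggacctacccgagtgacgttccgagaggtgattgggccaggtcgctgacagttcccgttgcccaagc
BAX: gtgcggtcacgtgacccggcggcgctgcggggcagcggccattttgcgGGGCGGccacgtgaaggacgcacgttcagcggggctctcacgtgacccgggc
BAK1: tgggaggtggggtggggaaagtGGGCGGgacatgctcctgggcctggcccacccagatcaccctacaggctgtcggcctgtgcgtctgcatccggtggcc
BID: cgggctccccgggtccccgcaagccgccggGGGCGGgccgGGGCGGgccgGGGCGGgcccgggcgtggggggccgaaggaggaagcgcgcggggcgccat
DIABLO: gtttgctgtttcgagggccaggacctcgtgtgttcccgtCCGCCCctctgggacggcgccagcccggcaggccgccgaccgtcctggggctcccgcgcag
APAF1: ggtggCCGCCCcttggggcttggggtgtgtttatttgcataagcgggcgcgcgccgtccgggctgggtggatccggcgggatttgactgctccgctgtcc
CASP8: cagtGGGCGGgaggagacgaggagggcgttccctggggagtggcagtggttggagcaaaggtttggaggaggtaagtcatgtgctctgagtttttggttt
Each of the 7 windows held at least 1 GC box, and that of BID held 3. A box stood in 10 of 12 windows of regulators higher with eIF4E and in 2 of 6 of those lower, among regulators with a promoter in the table. Over all genes tested the share was 54.6% among genes higher and 53.6% among genes lower, and it was 31.3% over every RefSeq promoter given. A match to these letters describes the window and shows no binding.

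Gene span in the same RefSeq assembly differed between the regulators by call. Its median was 7.73 kb for the 13 regulators higher with eIF4E and 31.5 kb for the 7 lower. Over all genes tested it was 15.5 kb for those higher and 57.8 kb for those lower. BID (40.5 kb) and CASP6 (45.4 kb) were long genes that were higher, and BCL2L2 (4.92 kb) was a short gene that was lower.

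Each treatment was also taken by itself. In irradiated cells 13 of 28 regulators were higher with eIF4E and 2 lower. Of all genes 59.5% were called there, 27.2% higher and 32.3% lower. In untreated cells 11 were higher and 5 lower, and of all genes 58.9% were called, 27.2% higher and 31.7% lower. The lower counts were unsteady. In irradiated cells the count was 4 with the replicate number as a block, 0 with the mean of all probe sets and 1 without replicate 2 of irradiated eIF4E. In untreated cells it was 2 with the mean of all probe sets and 3 without replicate 1 of untreated IgG. In the fit used throughout, 11 regulators were called higher in both treatments. Not all of these calls held. In irradiated cells the arrays of CASP6 and ENDOG overlapped between antibodies. There CASP6 lost its call without replicate 2 of irradiated eIF4E (limma, adjusted p = 0.0687). ENDOG lost its own without replicate 2 of irradiated IgG (limma, adjusted p = 0.0680). In untreated cells CASP9 lost its call without replicate 1 of untreated eIF4E (limma, adjusted p = 0.0627). Averaging the CASP9 probe sets ended it too (limma, adjusted p = 0.1155). APAF1 and CASP8 were called lower in both treatments in the fit used throughout. As means of their probe sets neither was called lower in either treatment. CASP8 in irradiated cells (-0.50 ± 0.19) also lost its call with quantile normalization (adjusted p = 0.0693), centring (adjusted p = 0.0933), all replicates 1 left out (adjusted p = 0.0542), and without replicate 1 of irradiated eIF4E (adjusted p = 0.0860), replicate 2 of irradiated eIF4E (adjusted p = 0.0713) or replicate 1 of irradiated IgG (adjusted p = 0.0653). BAD was at 1.70 ± 0.20 in irradiated cells and 1.92 ± 0.20 in untreated cells, and BAX was at 1.61 ± 0.15 and 1.68 ± 0.15 in irradiated and untreated cells. CASP4 and PMAIP1 passed in irradiated cells only, and BCL2L2, BIRC2 and CASP2 in untreated cells only, but no difference between the treatments passed its own test. These calls moved with the settings. Without replicate 1 of every group, CASP4 lost its call in irradiated cells (limma, adjusted p = 0.235). BCL2L2 gained one there (adjusted p = 0.00712). With centring CASP4 passed in untreated cells (adjusted p = 0.0248) and BIRC2 did not (adjusted p = 0.0821). With the replicate block CASP2 passed in irradiated cells (adjusted p = 0.0137). PMAIP1 lost its call there with quantile normalization (adjusted p = 0.0573). Over both treatments, arrays of the antibodies did not overlap in 9 regulators that were higher and 2 that were lower, where 23.1% and 26.7% of all genes showed this. Within irradiated cells 12 regulators lay wholly above and 4 wholly below IgG, where 29% and 33.4% of all genes did. Within untreated cells it was 12 above and 7 below, where 30.6% and 36.1% of all genes were.

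The effect of 2 Gy at 6 h was compared within each antibody. None of the 28 regulators passed for irradiated against untreated cells in eIF4E precipitates (limma, smallest adjusted p = 1.0), and none in IgG precipitates (limma, smallest adjusted p = 0.734). Without adjustment, 0 of the 28 had a p under 0.05 with either antibody. Over all 7178 genes 0% were called with either antibody, while 82 with eIF4E and 475 with IgG had an unadjusted p under 0.05. The differences of the regulators ran from -0.31 to 0.32 with eIF4E and from -0.40 to 0.44 with IgG, and all 95% intervals held 0. The intervals reached a median of 0.41 to either side of their estimate with both antibodies, and their width differed between genes. They are not adjusted for the number of genes tested. Changes of this size, and larger ones, could thus go uncalled with 3 arrays a group.

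The smallest p values with eIF4E were those of CASP6, CASP9 and HTRA2. CASP6 gave 818, 1299 and 1027 in irradiated cells and 1351, 1203 and 1295 in untreated cells, which overlap, at -0.31 (95% interval -0.71 to 0.09). CASP9 gave 448, 408 and 301 in irradiated cells and 345, 302 and 289.9 in untreated cells, at 0.28 (-0.12 to 0.67). HTRA2 gave 1117, 1372 and 1353 in irradiated cells and 1099.7, 1156 and 1096 in untreated cells, at 0.19 (-0.12 to 0.50). None of these 3 passed the adjusted threshold, and their groups overlapped. Between arrays of the same number, CASP9 and HTRA2 were higher in irradiated cells in 3 of 3 pairs, and so were BCL2L11, BIRC2, DFFB and DIABLO, 21.4% of the 28 regulators against 14.6% of all genes. APAF1, BAK1, BAX and ENDOG were lower in 3 of 3 pairs, 14.3% of the regulators against 13.1% of all genes. With the replicate number as a block 0 regulators had an unadjusted p under 0.05 and the smallest adjusted p was 1.0 (limma).

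BAX and PMAIP1, which p53 induces in cells where it is intact, were at -0.05 (95% interval -0.36 to 0.27) and 0.06 (-0.40 to 0.53) with eIF4E. DIABLO was the only regulator whose eIF4E arrays did not overlap by treatment, higher in irradiated cells at 0.08 (-0.20 to 0.37), where 4.85% of all genes were higher and 4.56% lower without overlap.

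With IgG the smallest p values were those of XIAP, TNFRSF1A and AIFM1. XIAP gave 90.2, 76.7 and 105.6 in irradiated cells and 75.2, 47.7 and 66.9 in untreated cells, without overlap, at 0.44 (95% interval -0.10 to 0.97). TNFRSF1A gave 847, 939 and 740 in irradiated cells and 1279, 857 and 959 in untreated cells, at -0.27 (-0.65 to 0.10). AIFM1 gave 975, 490.1 and 784 in irradiated cells and 675, 546 and 541 in untreated cells, at 0.30 (-0.14 to 0.74). XIAP was the only regulator higher without overlap with IgG and CASP10 the only one lower, where 4.53% and 4.15% of all genes were. HTRA2 was at 0.19 with IgG, as it was with eIF4E. Between IgG arrays of the same number, 14.3% of the regulators were higher in irradiated cells in 3 of 3 and 17.9% lower. Of all genes 13.2% and 12.9% were. HTRA2 and ENDOG were among those higher, and BIRC2 among those lower. The numbers of IgG arrays were not taken as pairs.

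**Figure D4:**
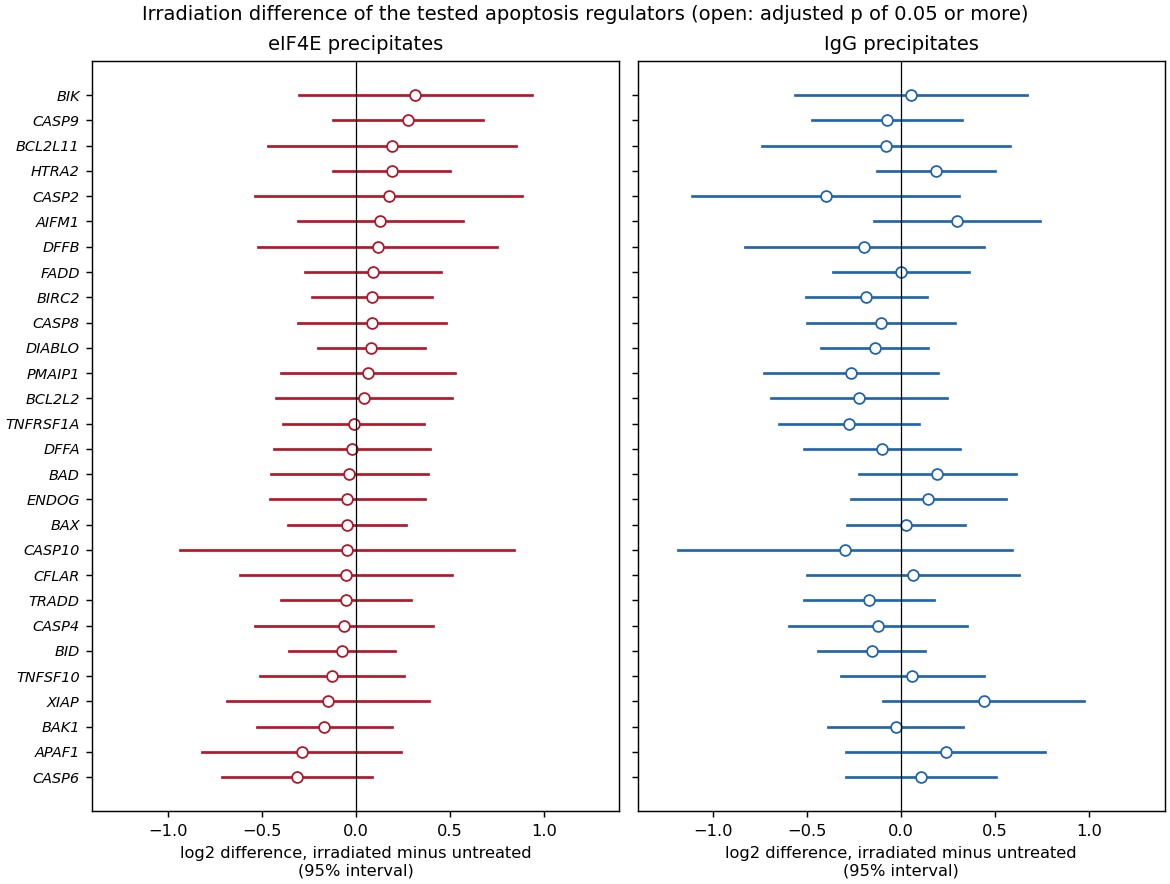
Differences of irradiated minus untreated cells on the log2(signal + 16) scale for the 28 tested regulators, with 95% intervals of the limma fit, in eIF4E precipitates (left) and IgG precipitates (right), 3 arrays a group. Every interval holds 0, and the estimates lie between -0.31 and 0.32 with eIF4E and between -0.40 and 0.44 with IgG.

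The difference of both irradiation effects, eIF4E minus IgG, asks for a change in binding beyond the background. No regulator passed (limma, smallest adjusted p = 0.999), 0 had an unadjusted p under 0.05, and 0% of all genes were called. The smallest p values were those of XIAP at -0.59 (95% interval -1.34 to 0.17), CASP6 at -0.42 (-0.98 to 0.15) and APAF1 at -0.53 (-1.27 to 0.22). With eIF4E XIAP read 87.3, 90.8 and 89.2 in irradiated cells and 94.0, 126.9 and 84.7 in untreated cells, which overlap. With IgG CASP6 read 546, 619 and 879.7 in irradiated cells and 557, 650.3 and 657 in untreated cells, which overlap too. Their other arrays and those of APAF1 are given above.

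A further 50 genes of apoptosis and related death pathways were listed beside these regulators, and 27 were tested. Of these, 11 (40.7%) were higher with eIF4E and 6 (22.2%) lower, where 32.5% and 38.2% of all genes were, and the median was 0.20. Neither irradiation comparison nor their difference called any, and 1 of the 27 had an unadjusted p under 0.05 in each. The pro-death genes had 8 higher and 2 lower of 17 (47.1% and 11.8%), with a median of 0.45. The pro-survival genes had 3 higher and 4 lower of 10 (30% and 40%), with a median of 0.16. That median was above 0, while that of the 4 pro-survival regulators was -0.37. PYCARD, an adaptor of inflammasomes, was higher by 1.62 ± 0.11 (adjusted p = 3.46e-09), PDCD5 by 1.51 ± 0.13 and PDCD6, a calcium-binding protein, by 1.49 ± 0.10. CRADD, the adaptor that brings caspase-2 to its activating complex, was higher by 1.18 ± 0.15, and BAG1, a co-chaperone that binds BCL2, by 0.87 ± 0.11.

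The main survival proteins of the BCL2 family, none of them among the 35, went both ways. BCL2L1, also called BCL-X, was higher by 0.87 ± 0.12 (adjusted p = 7.30e-06), at 0.51 ± 0.17 in irradiated cells and 1.23 ± 0.17 in untreated cells. It averaged 882 ± 179 with eIF4E in irradiated cells and 1196 ± 130 with eIF4E in untreated cells, and 606 ± 39.9 with IgG in irradiated cells and 504 ± 78.4 with IgG in untreated cells (SD, 3 arrays each). Its irradiation difference with eIF4E, -0.45 ± 0.17 without overlap of arrays, was the one in the wider list with an unadjusted p under 0.05 there (limma, adjusted p = 1.0), and so was its difference of irradiation effects, -0.72 ± 0.24 (limma, adjusted p = 0.999). Neither passed. BCL2 was at -1.54 ± 0.18 (adjusted p = 9.37e-07 for eIF4E minus IgG) and MCL1, the partner of PMAIP1, at -0.996 ± 0.09 (adjusted p = 4.58e-08). BCL2 was dim with eIF4E, with means of 75.65 in irradiated and 65.78 in untreated cells, beside 237 and 227 with IgG. Those eIF4E means lay under the highest values of CD3D and SNAP25 given above. Other probe sets of the genes in this wider list are not given here. TNFRSF10B, a receptor of TRAIL, was at -0.81 ± 0.10, API5 at -0.79 ± 0.12 and the co-chaperone BAG3 at -0.38 ± 0.12, all past the threshold. CYCS, cytochrome c, was at -0.09 ± 0.09 and did not pass (adjusted p = 0.414).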

How the data were processed

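One Affymetrix array was hybridised per precipitate, 12 in all. The deposited values are intensities on a linear scale, 1 signal per probe set, made by the authors with MAS5 per the submitters' processing notes. Its version is not given in what was used here. Every array had a trimmed mean of 500.2 (2% left out at each end), so values are relative within an array. The number of arrays limits the precision.

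Of 22277 probe sets, 19064 named 1 gene, 1043 several and 2108 none, and 62 were controls. The array annotation's symbols were updated for 19052 probe sets through gene identifiers to RefSeq (GRCh38.p14), used for names, gene spans and promoters. The probe set with the highest mean stood for a gene, and one ending in _x_at did so only for lack of another. Of 11963 genes, 7178 lay at or above the 40th percentile of mean log2 signal, which is a signal of 57.4, and these were tested.

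On log2(signal + 16), limma 3.58.1 (R 4.3.3) fitted 4 group means over 12 arrays with lmFit and a trended eBayes, and p-values were adjusted with Benjamini-Hochberg over all genes, threshold 0.05. This scale understates changes of dim genes. Probe sets were also fitted by themselves (10566 above the filter). The fit was checked on simulated data. Figures were drawn with matplotlib 3.10.9.

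The members, lists and rules were chosen with earlier results of these data known. Arrays are given singly for genes with the largest called differences without overlap (up to 5 pro-death and 3 other genes in each direction), for the 3 smallest p values of irradiation comparisons and for CFLAR. In the wider list up to 5 called genes each way are named, with BCL2, BCL2L1, MCL1 and CYCS. Less group means, irradiated and untreated eIF4E arrays of the same number correlated at 0.374, 0.208 and 0.181. These numbers were taken as pairs on this evidence alone, since the labels name no shared culture. All estimates given come from the fit without a block, and the block is an alternative. The other 5 group pairs each had a correlation under 0.1 for at least 1 number. Alternatives were pseudocounts of 1 and 64, no filter or the 60th percentile, quantile normalization, median centring, the replicate block, probe set means, replicate 1 left out everywhere and each array left out. The brightest probe set whatever its ending was added after seeing the data.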

Additional observations from a re-analysis of the deposited data

How the results depend on the processing

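No regulator passed in either irradiation comparison or in their difference under any alternative (0 throughout, the replicate block and the 12 omissions of 1 array included). Over both treatments, the count higher with eIF4E was 13 and ranged from 11 (60th percentile filter) to 14. The count lower was 7 and fell to 4 with centring. Of all 7178 genes, 2334 were higher and 2744 lower, 2704 and 2332 with centring, and 2415 and 2829 with the replicate block. Under the 60th percentile filter it was 1772 and 2012 of 4785 genes. In irradiated cells the count lower was 2. It was 1 with the 60th percentile filter, quantile normalization or centring. It was 3 without replicate 1 of every group, 4 with the replicate block and 0 with probe set means. Of all 7178 genes, 2322 were lower there, 2055 with quantile normalization, 1917 with centring, 2439 with the block and 1981 with probe set means. In untreated cells the count lower was 5. It was 3 with the 60th percentile filter, under which 18 regulators were tested, and 2 with probe set means. Of all 7178 genes, 2276 were lower there, 1783 of 4785 with that filter and 1966 of 7178 with probe set means. Leaving out 1 array gave 13 to 14 higher and 5 to 8 lower over both treatments, 11 to 13 and 1 to 3 in irradiated cells, and 10 to 12 and 3 to 6 in untreated cells. The lowest counts were those without replicate 2 of irradiated eIF4E (1 lower in irradiated cells) and without replicate 1 of untreated IgG (3 lower in untreated cells). With the replicate block the counts over both treatments were 14 and 7, and across antibodies the labels give same-numbered arrays only a number in common, while replicates 1 correlated there at 0.0956 to 0.303. CASP8 reversed to 0.20 as the mean of its probe sets, and CFLAR reversed to 0.59 (adjusted p = 0.000311) with the brightest probe set whatever its ending, which brought the counts to 14 higher and 7 lower. DFFB, which had no call, turned to -0.0794 without replicate 1 of every group. TNFSF10, near 0 and without a call, turned to 0.0029 with quantile normalization, 0.1126 with centring and 0.1926 with probe set means, and lay between -0.0873 and 0.0662 without 1 array. Of 799 values of single genes under alternatives, 751 kept direction and call, 26 lost the call, 12 gained one (BIK in 9, BCL2L11, CASP10 and CFLAR in 1 each) and 10 changed sign. These values cover the 28 regulators over both treatments and the 3 smallest p values of each irradiation comparison and of their difference. The irradiation values had no call to lose. Calls within irradiated or within untreated cells are not among them. Those moved as well, as for CASP4 and CASP8 in irradiated cells under several settings. Causes were not tested. Values near the filter, as in CASP10, CFLAR, XIAP and BCL2L11, lie closest to the level of genes taken as not expressed.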
